A study of Mus musculus with 8 samples.

Results

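The expression of 9 genes of iron and heme handling was followed in RAW264.7, an established mouse line with macrophage features. They were Hmox1, Blvrb, Slc40a1, Slc11a1, Slc11a2, Tfrc, Fth1, Ftl1 and Lcn2, chosen by name as the array rows that carry these symbols and are no control spots. These 9 genes had 12 of the 41174 probes on the array, and 8 of the 9 were among the 15440 genes bright enough to be tested. Cells were left untreated (control, labelled unpolarized), given all-trans retinoic acid (ATRA, also labelled unpolarized), given interleukin-13 (IL-13, labelled M2), or given IL-13 and ATRA together (labelled as M2 polarization suppressed). Total RNA of each of the 4 treatments was hybridised to 1 one-colour (Cy3) array at 12 h and 1 at 24 h, which made 8 arrays. All cells were of the 1 line, in the same serum-containing medium, and the labels give no dose of either agent. Nothing in the labels states whether the 8 arrays came from separate cultures. The p-values cover only how far treatment differences disagreed between the 12 h and the 24 h arrays. That spread may be technical or a change with time, and these cannot be told apart.

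Macrophages of the spleen and liver take up worn-out red cells, and heme oxygenase opens the heme ring and releases its iron. That iron leaves the cell through ferroportin or is stored in ferritin, and iron can also enter bound to transferrin or cross membranes through divalent metal transporters. Alternatively activated macrophages, of which IL-13 is a classical inducer, are known for releasing iron, whereas inflammatory macrophages tend to retain it. ATRA acts on gene expression through nuclear retinoic acid receptors.

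Values are processed signals of the scanner software after each array was scaled to a common 75th percentile, so that a level can be compared between arrays for 1 probe but not between probes. Differences are on the log2 scale, where 1 unit is a doubling, and ± is the standard error of the fit. A gene was called at a limma p under 0.05 after Benjamini-Hochberg adjustment across the 15440 genes. The fit had a term for each treatment and for time, so its spread is how far a treatment difference disagreed between 12 h and 24 h. Where the arrays of a treatment are said below to overlap others or stand apart from them, this is a description of 2 arrays per treatment. The share of all genes or probes that separate in the same way was not counted. The unscaled 75th percentile ranged from 448 to 739 over the arrays, 54.1% to 61.4% of probes were well above background, and 0 probes were saturated on any array. All 12 h arrays shared 1 slide and all 24 h arrays another, and effects of time and of slide cannot be told apart. Of 10 macrophage markers, 9 were well above background on all 8 arrays, with Mertk on 3. Their summed signal ranged from 259400 to 291800 at 12 h. At 24 h it was 224800 with IL-13 and 227000 with both agents, below 283600 in control and 293200 with ATRA. Among them Adgre1 was called higher with IL-13 (1.06) and with both agents against control (0.83), and Ptprc lower with both agents (-0.70, limma adjusted p = 0.039, 0.027 and 0.041). The part of these moves in the results was not tested. Of 6 erythroid markers, Hbb-bt, Klf1 and Epor were above background on all 8 arrays, Hba-a1 on 3, and Alas2 and Epb42 on 0. Klf1 was called higher with both agents against control (1.11, limma adjusted p = 0.038). The summed signal of the 6 was between 83.3 and 162, higher on all 4 arrays with ATRA (at least 133) than on the others (at most 117), and its part in the results was not tested. Of 6 neutrophil markers, 5 were on the array. Mpo and S100a8 were above background on all 8 arrays, Ltf on 2, S100a9 on 1 and Elane on 0. Their summed signal of 137 to 536 was lower at 24 h than at 12 h in every treatment, a move whose part in the results was not tested. Of 13 epithelial, fibroblast, endothelial and lymphoid markers, 8 were above background on 0 arrays, Epcam, Col1a1 and Pecam1 among them, and the summed signal was 79.8 to 196. Among them Pdgfrb was called lower with both agents against control (-1.43, limma adjusted p = 0.028), and its part in the results was not tested. In bulk RNA, fewer cells expressing a gene and less RNA per cell cannot be told apart.

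In the fit with 1 probe per gene, 0 of the 8 tested genes were called in any of 7 comparisons. The background of called genes was 1.27% for IL-13 against control, 1.86% for ATRA against control, and 8.5% for IL-13 with ATRA against control. It was 2.64% for both agents against IL-13 and 0.363% for both agents against ATRA. For the interaction of the agents it was 0.0194%, and for 24 h against 12 h it was 0%. At an unadjusted limma p under 0.05, 2 of the 8 passed for IL-13 (Ftl1 and Blvrb), against 23.9% of all genes. For ATRA the 2 that passed were Slc40a1 and Slc11a1, against 15.1% of all genes. For both agents against control it was Slc11a1 alone, against 28.3% of all genes. For both agents against IL-13 it was Slc11a1 and Blvrb (19.1% of all genes), for both against ATRA Slc40a1 (12.9%), for the interaction Slc40a1 (3.65%), and for time Slc11a1 (12.2%). The median difference over the 8 genes was 0.15 for IL-13, 0.14 for ATRA and 0.09 for both agents against control. Beside these, the medians over all genes were -0.0023, -0.017 and -0.026. One probe of Slc11a2 outside this gene table was called in the fit with 1 row per probe, as described with that gene.

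**Figure D1:**
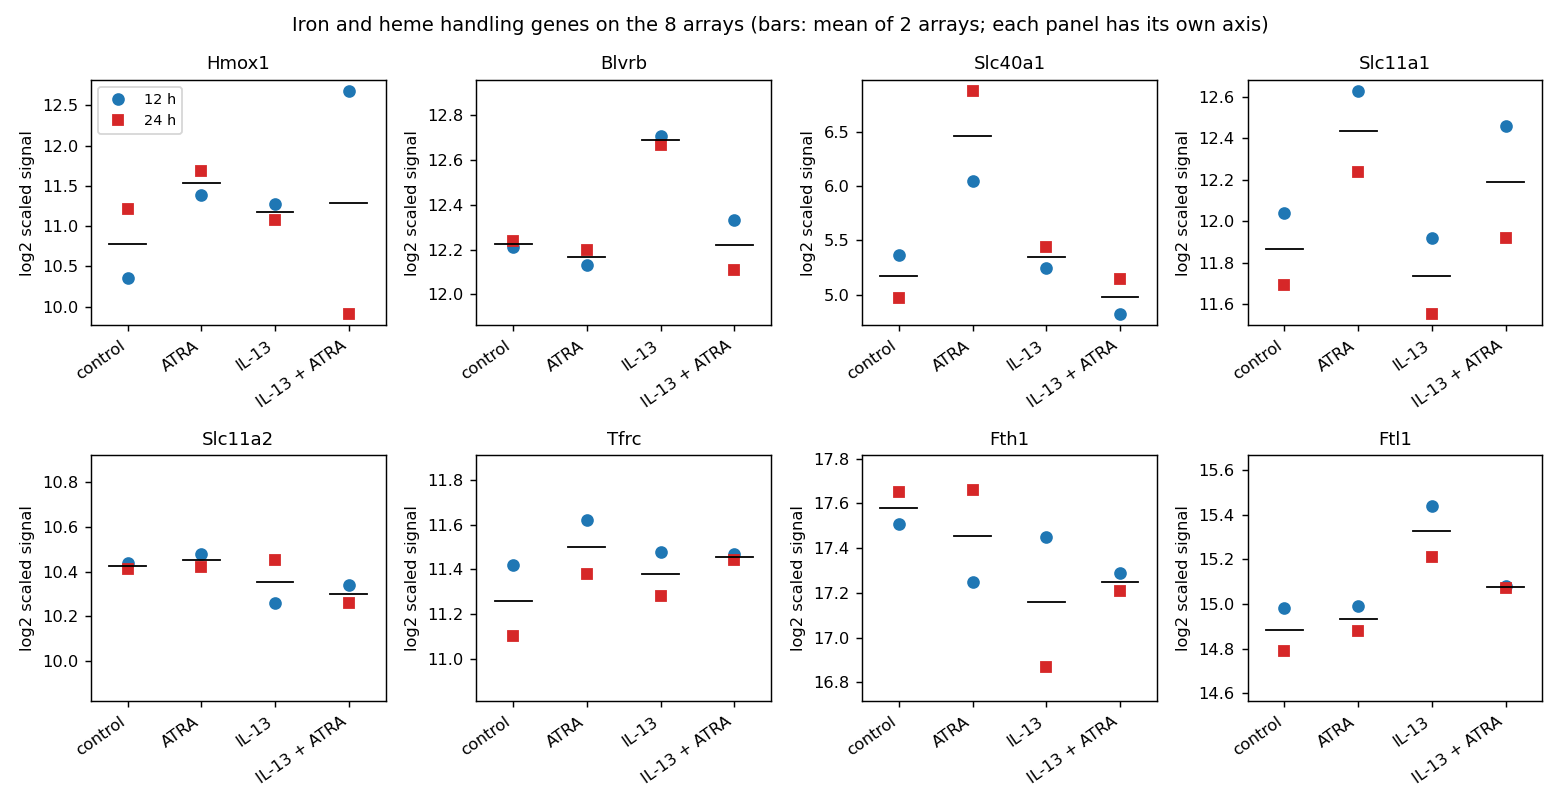
Each panel plots the log2 scaled signal of 1 gene on the 8 arrays, with circles for 12 h, squares for 24 h and a bar at the mean of the 2 arrays of a treatment. Hmox1 in cells given both agents spans 12.68 at 12 h to 9.90 at 24 h, while Slc11a2 stays between 10.26 and 10.48 on all 8 arrays.

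Hmox1 encodes heme oxygenase 1, the inducible enzyme that cleaves heme to biliverdin, carbon monoxide and iron. Its bright probe (NM_010442) lies at chr8:77624207-77624266 on the plus strand of mm9, and its last 30 bases are shown because all the Hmox1 values rest on this 1 spot per array.
Hmox1 probe, bases 31 to 60: cgactgctgtcccccagtgccatggccact
At 12 h the scaled signal was 1310 in control, 2690 with ATRA, 2470 with IL-13 and 6570 with both agents. By 24 h these were 2370 in control, 3300 with ATRA, 2150 with IL-13 and 958 with both agents. The array with both agents was thus the highest of the 4 at 12 h and the lowest of the 4 at 24 h, and its 2 values lay outside those of all other arrays.

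For both agents against control, the Hmox1 difference was 2.33 at 12 h and -1.30 at 24 h. Against IL-13 alone it was 1.41 and -1.17, and against ATRA alone 1.29 and -1.78. The fitted differences averaged these opposite values (0.51 ± 0.85 against control, limma adjusted p = 0.73) and describe neither time. ATRA alone gave 1.04 at 12 h and 0.48 at 24 h, a fitted difference of 0.76 ± 0.85 (limma adjusted p = 0.76). IL-13 alone gave 0.92 and -0.13.

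Whether the effect of an agent on Hmox1 differed between the times was tested in a second limma model that added every interaction of a pair of factors and kept 1 residual degree of freedom. Each of its terms for time averages an agent's effect over the arrays without and with the other agent. The IL-13 effect at 24 h minus that at 12 h, so averaged, was -2.06 ± 0.57 (limma unadjusted p = 0.030, adjusted p = 0.47). In the presence of ATRA this change was -3.07, whereas IL-13 alone went from 0.92 to -0.13. The ATRA effect, averaged in the same way, gave -1.57 ± 0.57 (limma unadjusted p = 0.061, adjusted p = 0.54). In the presence of IL-13 its change was -2.58, whereas ATRA alone went from 1.04 to 0.48. This model called 0 of 15440 genes for either term, with 1535 and 1478 genes at an unadjusted p under 0.05. The design has 1 array per treatment and time, so the Hmox1 crossing has no replicate at either time. A second Hmox1 probe (ENSMUST00000160341, chr8:77620085-77620144, plus strand) was above background on 0 arrays, with signals of 2.12 to 13.0, and so cannot check the first.

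Blvrb encodes biliverdin reductase B, which reduces flavins and some forms of biliverdin. Its probe (NM_144923, chr7:28250924-28250983, plus strand, mm9) holds the letters aataaa, the form of a polyadenylation signal, shown in capitals. Use of such letters as a signal was not checked for any probe.
Blvrb probe, bases 31 to 60: tcAATAAAtttttagccaagagtttcaaat
The scaled signal at 12 h was 4720 in control, 4470 with ATRA, 6690 with IL-13 and 5150 with both. At 24 h it was 4850, 4700, 6500 and 4430 in the same order. The 2 IL-13 arrays were the highest at each time and did not overlap any other treatment, while the arrays with both agents overlapped those of control and of ATRA.

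The Blvrb difference for IL-13 against control was 0.46 ± 0.12 (0.50 at 12 h and 0.42 at 24 h, limma adjusted p = 0.13). With ATRA added to IL-13 it was -0.46 ± 0.12 against IL-13 alone (-0.38 and -0.55, limma adjusted p = 0.13). Both agents against control gave -0.0027 ± 0.12, with a 95% interval from -0.31 to 0.30. The unadjusted limma p-values of the first pair were 0.011 and 0.010, and neither passed after adjustment. In limma's trend and robust settings the second was called (adjusted p = 0.048).

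Ftl1 encodes the ferritin light chain, and Fth1 the ferritin heavy chain that oxidises iron as it enters the storage shell. The Ftl1 probe (NM_010240, chr7:52714977-52715036, minus strand, mm9) includes the start codon, shown in capitals, so it reads the 5′ end of the transcript.
Ftl1 probe, bases 36 to 60: ATGacctctcagattcgtcagaatt
The Ftl1 signal at 12 h was 32300 in control, 32500 with ATRA, 44400 with IL-13 and 34700 with both. The 24 h arrays gave 28400, 30200, 37800 and 34500. IL-13 alone gave the highest value at each time, and its lower value stood above all arrays of the other treatments.

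The Ftl1 difference for IL-13 against control was 0.44 ± 0.11 (0.46 at 12 h and 0.41 at 24 h, limma adjusted p = 0.12). For ATRA it was 0.05 ± 0.11, and for both agents 0.19 ± 0.11. Both agents against IL-13 gave -0.24 ± 0.11 (limma adjusted p = 0.31). A probe named Ftl2-ps, a copy of the light chain gene, gave 0.38 ± 0.12 for IL-13 (limma adjusted p = 0.15). Signals of near-identical copies may cross, so Ftl1 and Ftl2-ps cannot be told apart with certainty here.

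Fth1 (NM_010239, chr19:10059485-10059544, plus strand, mm9) read 187000 in control, 156000 with ATRA, 179000 with IL-13 and 161000 with both at 12 h. At 24 h the signals were 205000, 207000, 120000 and 151000. The IL-13 array at 24 h was the lowest of all 8, and the IL-13 array at 12 h lay inside the range of the ATRA arrays. The IL-13 difference was therefore -0.07 at 12 h and -0.77 at 24 h (fit -0.42 ± 0.24, limma adjusted p = 0.32). For both agents it was -0.22 and -0.44 (fit -0.33 ± 0.24, limma adjusted p = 0.42). Before scaling, the IL-13 array at 24 h read 165300 and was not the lowest, as both agents at 12 h read 137800. With quantile normalization the IL-13 fit for Fth1 was -0.27 ± 0.11 (limma adjusted p = 0.23). Over the 8 arrays, the log2 signals of Blvrb and Ftl1 correlated with Pearson's r = 0.792 and Spearman's rho = 0.548. For Ftl1 and Fth1, Pearson's r was -0.482 and Spearman's rho -0.667. These are descriptions over arrays that share treatments and slides.

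Slc40a1 encodes ferroportin, the iron exporter of the cell surface. Its probe (NM_016917, chr1:45965255-45965314, minus strand, mm9) holds the letters of a polyadenylation signal, in capitals. The scaled signal of this probe was low on every array, though above background on all 8.
Slc40a1 probe, bases 31 to 60: cctttcaatatccctgagaagAATAAAgaa
At 12 h the signal was 41.3 in control, 65.9 with ATRA, 38.1 with IL-13 and 28.3 with both. The 24 h values were 31.4, 117, 43.4 and 35.5. The 2 ATRA arrays stood above all 6 others, and control overlapped with IL-13 and with both agents together.

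The Slc40a1 difference for ATRA against control was 1.29 ± 0.28, or 2.44-fold, with 0.67 at 12 h and 1.90 at 24 h. Its unadjusted limma p was 0.0051 and its adjusted p 0.11, so it was not called. Both agents against ATRA alone gave -1.47 ± 0.28 (-1.22 at 12 h and -1.73 at 24 h, limma adjusted p = 0.15). Both agents against control gave -0.19 ± 0.28. The interaction, which asks whether the agents together depart from the sum of their separate effects, was -1.65 ± 0.40 and was not called (limma adjusted p = 1.0). Over the 11 alternatives run the ATRA difference ranged from 0.66 to 1.41 and was called under 0 of them, and with normexp background correction, which adds an offset to dim signals, it took its lowest value.

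Slc11a1 encodes NRAMP1, a metal transporter of the phagosome membrane of macrophages. Its probe lies at chr1:74432161-74432220 on the plus strand of mm9 (NM_013612). The scaled signal at 12 h was 4210 in control, 6320 with ATRA, 3870 with IL-13 and 5630 with both. At 24 h it was 3300, 4850, 3000 and 3880. At each time the order was ATRA, both agents, control and IL-13 from high to low, and every 24 h array was below the 12 h array of its treatment.

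The Slc11a1 difference for ATRA against control was 0.57 ± 0.11, or 1.49-fold (0.59 at 12 h and 0.55 at 24 h). Its limma adjusted p was 0.079, and it ranged from 0.018 to 0.41 over 11 alternatives. Adding ATRA to IL-13 gave 0.46 ± 0.11 against IL-13 alone (0.54 and 0.37, limma adjusted p = 0.11). Both agents against control gave 0.33 ± 0.11 (limma adjusted p = 0.13). IL-13 alone gave -0.13 ± 0.11, with a 95% interval from -0.41 to 0.15. The interaction was not called (-0.11 ± 0.16, 95% interval from -0.50 to 0.28). The difference of 24 h from 12 h was -0.41 ± 0.077 (limma adjusted p = 0.32). With normexp background correction the ATRA difference was called at 0.63 (adjusted p = 0.045), and with limma's trend and robust settings at 0.57 (adjusted p = 0.018). In the latter settings the difference of both agents from IL-13 was called too (adjusted p = 0.038).

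**Figure D2:**
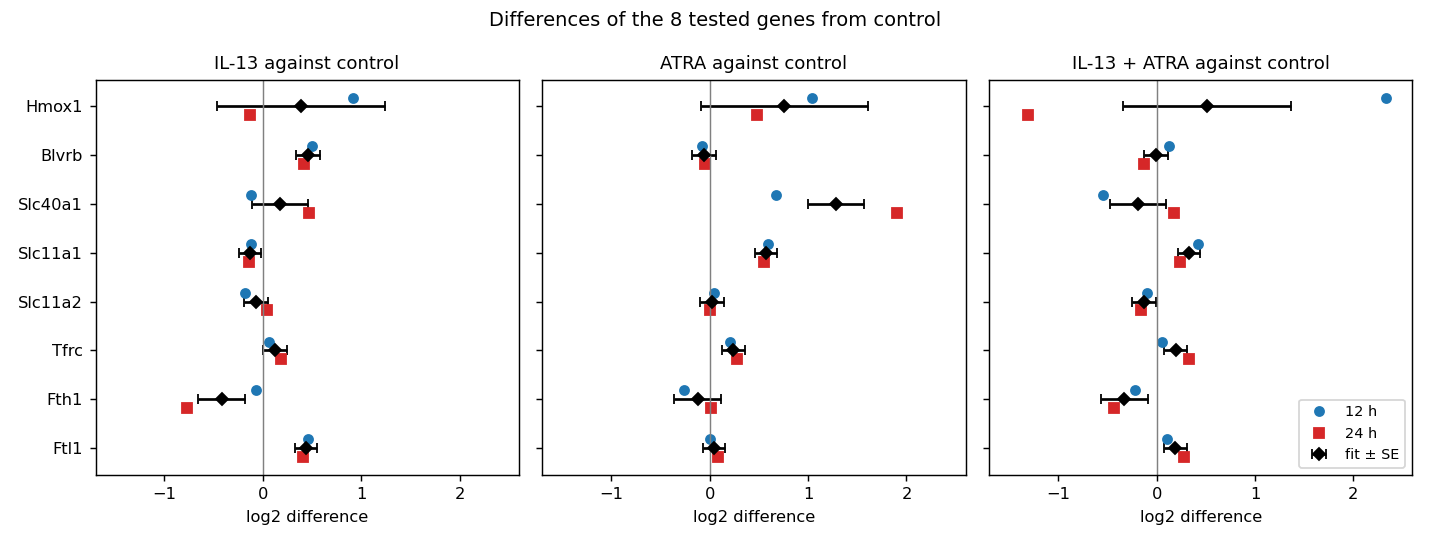
For the 8 tested genes, each panel plots the log2 difference of 1 treatment from control, with circles for 12 h, squares for 24 h and diamonds with the standard error for the fit over both times. The 2 times lie close together for Slc11a1 with ATRA (0.59 and 0.55) and on opposite sides of 0 for Hmox1 with both agents (2.33 and -1.30).

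Slc11a2 encodes DMT1, which carries ferrous iron out of endosomes into the cytosol, and its transcripts are known to have alternative 3′ ends. It was read by 3 probes, all on the minus strand of chromosome 15 (mm9). The probe with the highest signal (NM_008732) lies farthest downstream at chr15:100218333-100218392. A probe annotated to the transcript NM_001146161 lies upstream of it at chr15:100223347-100223406, and a second NM_008732 probe lies farther upstream at chr15:100240516-100240575. The sequences are shown because the probes of this 1 gene gave different answers, with the letters of a polyadenylation signal in capitals.
Slc11a2 NM_001146161 probe, bases 31 to 60: acggtacttcaacagtacagtaacctgtaa
Slc11a2 downstream NM_008732 probe, bases 31 to 60: ttgttatAATAAAgttcatgcttaatagct
Slc11a2 upstream NM_008732 probe, all 60 bases: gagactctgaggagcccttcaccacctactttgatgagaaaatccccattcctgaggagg

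The NM_001146161 probe read 70.2 in control, 104 with ATRA, 96.0 with IL-13 and 141 with both at 12 h. At 24 h it read 63.7, 113, 102 and 127. Control was lowest and both agents together highest at each time. None of the 4 treatments overlapped another, which is a description only, since the share of all probes that separate so was not counted. In the limma fit with 1 row per probe (24017 probes, of which 8.86% were called for this comparison), both agents against control raised it by 0.998 ± 0.13 (1.003 at 12 h and 0.992 at 24 h, adjusted p = 0.015). That call was lost when either control array or either array with both agents was left out, with adjusted p between 0.073 and 0.095. It was also lost without a filter on dim probes (adjusted p = 0.097). The adjusted p was 0.071 for ATRA (0.70 ± 0.13, against a background of 1.57% of probes called, and called under 5 of 11 alternatives) and 0.10 for IL-13 (0.56 ± 0.13, background 1.14%). Adding ATRA to IL-13 gave 0.44 ± 0.13 (adjusted p = 0.16, background 2.18%), and adding IL-13 to ATRA 0.30 ± 0.13 (adjusted p = 0.38, background 0.337%).

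The downstream NM_008732 probe read between 1220 and 1430 on all 8 arrays. Its differences from control were -0.07 ± 0.12 for IL-13, 0.03 ± 0.12 for ATRA and -0.13 ± 0.12 for both agents (95% interval from -0.43 to 0.18). The upstream NM_008732 probe read 86.1 to 115 and gave -0.04 ± 0.16, 0.03 ± 0.16 and -0.13 ± 0.16. The response of the NM_001146161 probe minus that of the downstream probe was 0.63 (95% interval 0.31 to 0.95) for IL-13 and 0.68 (0.36 to 0.99) for ATRA. For both agents it was 1.12 (0.81 to 1.44). This contrast of probes was chosen after their values were seen, and it shows unequal change between the probes, not which transcripts the cells made.

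**Figure D3:**
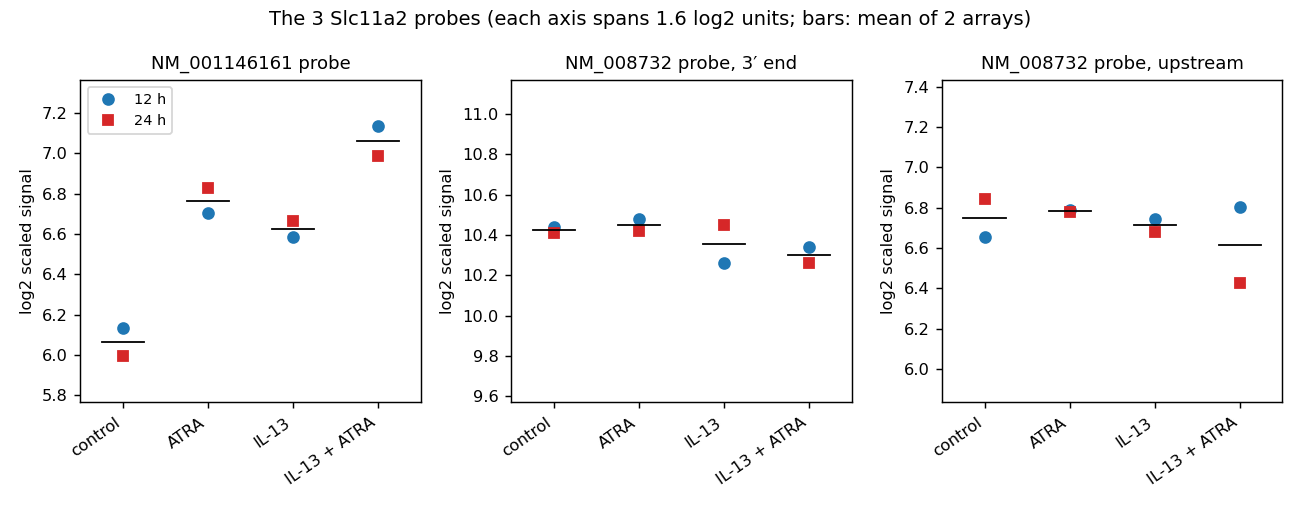
Log2 scaled signal of the 3 Slc11a2 probes on the 8 arrays, with circles for 12 h, squares for 24 h and a bar at the mean of each treatment, on axes of equal span. The NM_001146161 probe is lowest in control (5.99 and 6.13) and highest with both agents (6.99 and 7.14), while the downstream NM_008732 probe stays between 10.26 and 10.48.

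Tfrc encodes the transferrin receptor, which brings transferrin-bound iron into the cell. Its probe (NM_011638, chr16:32632255-32632314, plus strand, mm9) was printed 10 times per array, and the repeat spots had a coefficient of variation of 2.10% to 5.47%. Tfrc read 2730 in control, 3160 with ATRA, 2860 with IL-13 and 2840 with both at 12 h, and 2200, 2660, 2490 and 2770 at 24 h. The treatments overlapped in every pair except control and both agents together. The largest difference from control was 0.24 ± 0.12 with ATRA (0.21 and 0.27, limma adjusted p = 0.43), with a 95% interval from -0.05 to 0.54.

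Lcn2 encodes lipocalin 2, which binds bacterial and host siderophores and is secreted by neutrophils and activated macrophages. Its 60-base probe (NM_008491, minus strand, mm9) spans chr2:32241037-32241281, or 245 genomic bases, so it crosses an intron and reads spliced RNA.
Lcn2 probe, all 60 bases: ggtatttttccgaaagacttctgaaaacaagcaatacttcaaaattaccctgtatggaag
It was above background on 1 of 8 arrays, the control array at 12 h, where it read 12.1. On the other 7 arrays it read 1.95 to 8.44, not well above background, so Lcn2 was not tested and no fold is given.

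An entry for 6 of the 9 genes was found in the RefSeq promoter table (GRCm38.p6), which holds 9 windows for them, each from 250 bases before a transcript start to 50 after it. On either strand, the letters ttc and gaa with 4 bases between them, the form of a STAT6 site, were in 7.0% of 32851 windows of all genes and in 2 of these 9, those of Blvrb and Lcn2. The retinoid receptor half-site AGGTCA was in 16.3% of all windows and in 1 of the 9, that of Slc11a1. The core of the antioxidant response element, TGACNNNGC, was in 12.4% of all windows and in 0 of the 9. The Blvrb stretch starts at base 27447807 and the Slc11a1 stretch at base 74375035. They were picked after the values were seen, as genes with a match and with uncalled differences, Blvrb with IL-13 and Slc11a1 with ATRA, of like size at both times. Ftl1, whose IL-13 differences were also of like size (0.46 and 0.41), had no window with the STAT6 form, and Lcn2, which had one, was too dim to test. A link between a match and a difference was not tested. The motif is in capitals and starts 146 bases before the start of Blvrb and 143 before that of Slc11a1.
Blvrb promoter stretch, chr7:27447807-27447866, plus strand: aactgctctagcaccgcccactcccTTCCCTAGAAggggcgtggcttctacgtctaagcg
Slc11a1 promoter stretch, chr1:74375035-74375090, plus strand: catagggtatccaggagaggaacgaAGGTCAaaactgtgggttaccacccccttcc
A match is a description of the letters in these windows, and binding there was not measured.

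Around these genes, 73 others of iron and heme handling were listed in 7 groups, of which 72 were on the array and 56 were tested. With ATRA 2 of them rose, Cp and Abcg2, where 0.9% of all genes were called higher. With both agents against control 2 rose, again Cp and Abcg2, where 3.02% of all genes were called higher. Against IL-13 alone, both agents raised 1 of them, Cp, where 1.15% of all genes were called higher. In limma, none of the 56 fell in a treatment comparison, and 0 were called for IL-13 alone or for both agents against ATRA. At an unadjusted limma p under 0.05, 15 of the 56 passed for IL-13 and 11 for both agents against ATRA, next to 23.9% and 12.9% of all genes. The median difference over the 56 genes was 0.01 for IL-13, 0.05 for ATRA and 0.10 for both agents against control.

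Cp encodes ceruloplasmin, the copper ferroxidase that oxidises iron leaving through ferroportin. Its signal was 132 in control, 753 with ATRA, 223 with IL-13 and 1140 with both agents at 12 h. At 24 h it was 147, 1440, 267 and 2700. Every array with ATRA was above every array without it. Cp rose with ATRA by 2.90 ± 0.29 (2.51 at 12 h and 3.28 at 24 h, limma adjusted p = 0.026). With both agents it rose by 3.65 ± 0.29 (limma adjusted p = 0.0062), and by 2.84 ± 0.29 against IL-13 alone (limma adjusted p = 0.021). Of the 8 fits that leave out 1 array, 4, 7 and 6 kept these 3 calls. The ATRA call was lost without either control array or either ATRA array (adjusted p from 0.076 to 0.17). The call for both agents was lost without the control array at 24 h (0.054), and that against IL-13 without the 24 h array of IL-13 or of both agents (0.094 and 0.097). A second, dimmer Cp probe was above background on 4 arrays and gave 0.40 for ATRA and 1.25 for both agents. With the probes averaged, the ATRA difference was 1.65 (adjusted p = 0.12). Without a filter on dim probes all 3 Cp calls were lost (adjusted p = 0.19, 0.055 and 0.14), and that against IL-13 was also lost when only the arrays of these treatments were fitted (0.094).

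Abcg2 encodes an exporter of heme, porphyrins and drugs. Its signal was 79.7 in control, 131 with ATRA, 124 with IL-13 and 165 with both at 12 h, and 90.5, 159, 144 and 198 at 24 h. Control was lowest and both agents highest at each time. Abcg2 rose with ATRA by 0.77 ± 0.10 (limma adjusted p = 0.040) and with both agents by 1.09 ± 0.10 (limma adjusted p = 0.0089). IL-13 alone gave 0.66 ± 0.10 (limma adjusted p = 0.057). The ATRA call was kept by 0 of the 8 fits that leave out 1 array, with adjusted p from 0.058 to 0.28. The call for both agents was lost without either of its own arrays or either control array (0.053 to 0.072). Of 11 other settings, 6 kept the ATRA call, with adjusted p from 0.061 to 0.25 in the rest, and 10 kept the call for both agents, which was lost without a filter on dim probes (0.079). A second Abcg2 probe gave 0.96 for ATRA and 1.42 for both agents.

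**Figure D4:**
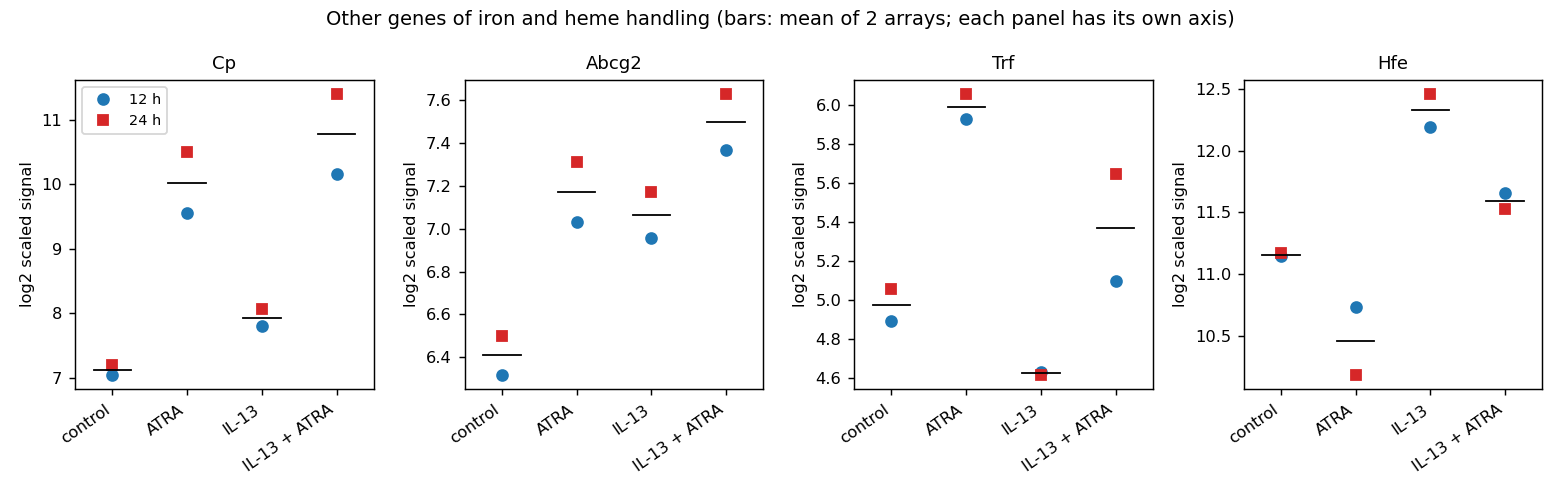
Log2 scaled signal of Cp, Abcg2, Trf and Hfe on the 8 arrays, with circles for 12 h, squares for 24 h and a bar at the mean of each treatment. Every Cp array with ATRA (753 to 2700 in scaled signal) lies above every array without it (132 to 267).

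The other genes named here had the largest differences of their group that agreed in sign between the times, and none of them was called in the fit reported. Among genes of uptake, Trf, which encodes transferrin, gave 1.02 ± 0.16 with ATRA (limma adjusted p = 0.055), and it was called under 4 of 11 alternative settings. Its signal was 29.7, 60.9, 24.8 and 34.2 at 12 h for control, ATRA, IL-13 and both, and 33.3, 66.7, 24.5 and 50.2 at 24 h, with both ATRA arrays highest. Bdh2, an enzyme linked to a mammalian siderophore, gave 1.32 ± 0.46 with IL-13 and -1.31 ± 0.46 with ATRA (limma adjusted p = 0.18 and 0.27). A second Bdh2 probe, above background on only 1 array, gave 1.13 with IL-13 and 1.21 with ATRA, the latter of opposite sign. Hfe, a regulator of hepcidin that binds the transferrin receptor, gave 1.17 ± 0.21 with IL-13 (1.05 and 1.30, limma adjusted p = 0.070) and -0.70 ± 0.21 with ATRA (limma adjusted p = 0.20). The IL-13 difference was called under 2 of 11 alternative settings. A second Hfe probe gave 1.20 and -0.57.

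Among genes of heme transport, Lrp1, the receptor for heme bound to hemopexin, gave -2.11 ± 0.45 with IL-13 (-1.65 and -2.57, limma adjusted p = 0.097). Its signal was 372 to 2120 on the IL-13 arrays and 2210 to 6660 on the control arrays, and a second Lrp1 probe gave -0.53. It was called with normexp background correction (limma adjusted p = 0.048) and without the 12 h array of IL-13 (0.041). Hp, which encodes the hemoglobin-binding haptoglobin, was not well above background on either IL-13 array. With the scaling of the fit reported it was at least 2.36-fold brighter in control (limma adjusted p = 0.11). That minimum does not hold for every processing: over 10 alternatives the IL-13 difference ranged from -1.96 to -0.46. Hp read 22.0 and 19.1 in control and 35.1 and 119 with ATRA (limma adjusted p = 0.17 for ATRA against control). Epas1, which encodes the oxygen-sensitive factor HIF-2 alpha, gave -1.01 ± 0.27 with IL-13 (limma adjusted p = 0.13) and 1.52 ± 0.27 for both agents against IL-13 (limma adjusted p = 0.058), and the latter was called under 4 of 11 alternative settings. Against control, both agents gave 0.51 on this Epas1 probe. A second Epas1 probe, above background on 5 arrays, gave less, -0.61 with IL-13 and -0.02 for both agents against control.

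Among enzymes of heme synthesis, 8 of 9 were tested, and Uros gave 0.47 ± 0.12 with IL-13 (limma adjusted p = 0.13). Alad gave 0.36 ± 0.12 with both agents (limma adjusted p = 0.13), and a second Alad probe, above background on only 1 array, gave -1.63. Bach1, a heme-sensing repressor of Hmox1 and ferritin genes, gave -0.54 ± 0.16 with both agents (limma adjusted p = 0.10), and was called with trend and robust moderation (0.042). For the iron chaperone Pcbp2, IL-13 gave -0.33 ± 0.16 (limma adjusted p = 0.26), and its other probes gave -0.32 and -0.13. In the mitochondrial group, all 14 were tested: Cisd2, of the outer membrane, gave 0.48 ± 0.14 with IL-13 (limma adjusted p = 0.15), and the iron importer Slc25a37 gave -0.48 ± 0.16 with both agents (limma adjusted p = 0.12). Other probes gave less, 0.23 and 0.11 for Cisd2 with IL-13 and -0.05 for Slc25a37 with both agents. Of 6 other genes that share the regulator NRF2 with Hmox1, 5 were tested and 0 were called in limma. At an unadjusted limma p under 0.05, 1 of the 5 passed for IL-13, 3 for ATRA and 1 for both agents against control, next to 23.9%, 15.1% and 28.3% of all genes, with medians of 0.14, -0.33 and -0.25. For both agents against IL-13, 3 of the 5 passed it, next to 19.1% of all genes, and the median was -0.39, with all 5 lower in sign. Hamp, which encodes hepcidin, and Spic, a factor of iron-recycling macrophages, were among the 16 listed genes on the array that were not bright enough to test.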

How the data were processed

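RNA of RAW264.7 cells was read on 8 one-colour Agilent whole mouse genome arrays. Per the file headers, the authors extracted the spots with Agilent Feature Extraction, and its processed signal is an intensity, background-subtracted within each array and deposited with no scaling between arrays. Feature Extraction also deposited other values, 0 or 1 marks of spot quality, per the file headers. The authors' deposited value table is on a log2 scale, with columns that all run from 0.752 to 18.2. How it was normalized is not given in the sources used here, and it served as an alternative.

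Of 43379 non-control spots, those marked non-uniform or as outliers were dropped, and repeat spots were averaged. The log2 signal was scaled to the array's 75th percentile taken over all non-control spots. A probe had to be well above background on the 12 h and the 24 h array of some treatment, with no missing value, and such probes numbered 24017 of 41174, and the brightest probe stood for each gene (15440 genes). Symbols came from RefSeq accessions where they matched (27668 probes). Probe positions (mm9) are those of the file, and exons and untranslated regions were not looked up. limma 3.58.1 in R 4.3.3 fitted treatment and time on all 8 arrays, with 3 residual degrees of freedom and a prior of 2.41, so that the arrays of 1 time, which shared a slide and a replicate number, act as a block. The number of arrays limits the precision. On data simulated for IL-13 against control with 15440 genes, 42% of genes changed by 1 log2 unit and 90% of those changed by 2 were called. The simulation changed a small set of genes in the IL-13 group alone. Its noise was independent and normal, with the fitted prior spread and no effect of time or slide. It is thus a check of the fit and no measure of power on these data.

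The 9 genes, the other gene lists and the tests were chosen with earlier results of these data known, so no list supports a direction. The genes named beyond the 9 were those called in a comparison, and per list the 2 with the largest difference from control of the same sign at both times. Alternatives were quantile normalization, normexp background correction (offset 50), the deposited values, 2 filters, averaged probes, kept flagged spots, 2 treatments of time, trend and robust moderation, fits on the compared groups alone, and leaving out each array. One marker gene of the lists is not reported here.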

Additional observations from a re-analysis of the deposited data

Results flagged for a closer look

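Hmox1, with 1 spot per array, had differences of opposite sign at the 2 times in 3 comparisons that share the arrays given both agents. For IL-13 with ATRA against control, the difference at 24 h minus that at 12 h was -3.63 on the log2 scale. Against IL-13 alone it was -2.58, and against ATRA alone -3.07. Each time has 1 array per treatment, so these differences between the times were not tested themselves. The limma terms for a change of each agent's effect with time, averaged over arrays without and with the other agent, had adjusted p-values of 0.47 and 0.54 for Hmox1.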

How the results depend on the processing

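Of the 9 genes, 0 were called in every alternative and comparison run, except that 1 (Slc11a1) was called for ATRA against control with normexp background correction and 1 (Slc11a1) with trend and robust moderation, and 2 (Blvrb and Slc11a1) for both agents against IL-13 with trend and robust moderation. Without the replicate block, that is with no term for time, which pairs the arrays of a slide, 0 were called in the 6 treatment comparisons. Without it the ATRA call of Abcg2 was lost too (adjusted p = 0.095), while the calls of Cp and of the Slc11a2 probe were kept. Leaving out each array in turn gave 0 to 0 throughout. Of 584 values of the 8 tested genes under the other alternatives, 580 kept their side of the threshold, and 4 became called. Of 1088 values of the other named genes, 17 became called and 11 lost a call, and of 146 values of the Slc11a2 probes 5 and 1. The cause was not tested.

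Over the 11 alternatives, the count of all called genes ranged from 1 to 606 for IL-13 (196 in the fit reported), from 0 to 630 for ATRA (287), and from 36 to 2027 for both agents (1313). It ranged from 7 to 817 for both against IL-13 (407) and from 2 to 167 for both against ATRA (56). With 1 array left out these became 2 to 357, 1 to 171, 103 to 1454, 15 to 516 and 3 to 45. Quantile normalization moved the share of higher calls for IL-13 from 53.6% to 68.5%. The model for changes with time leaves no degrees of freedom once an array is left out, so that was not run. Slc40a1, Lcn2 and the called Slc11a2 probe have dim signals, and normexp took the ATRA difference of Slc40a1 from 1.29 to 0.66. It also took that probe from 0.998 to 0.633 for both agents and from 0.70 to 0.42 for ATRA, and the ATRA differences of Abcg2 from 0.77 to 0.49 and of Trf from 1.02 to 0.52.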
